A study of Arabidopsis thaliana with 121 samples.

Results

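Reads from the strand opposite to the annotated strand of a transposable element (TE) were counted for every TE of the Arabidopsis annotation, and the 623 TEs with the most such reads are described here. They are the antisense rows, of 31188 in all, that reached 30 RPM (reads per 1000000 antisense reads of the library) in at least 3 of the 39 libraries of the first of the 2 library sets. The levels in these 39 libraries chose the members and are therefore given as a description without a test. Tests were made only on the sense row of the same TE and on the second set of libraries, which the choice did not use.

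TEs are kept silent in plants by DNA methylation and compact chromatin. DDM1 is a chromatin remodeller that lets methyltransferases reach the DNA of heterochromatin, and its loss releases the transcription of many TEs. CDCA7 proteins carry a zinc finger and, in vertebrates, recruit the remodeller HELLS, the relative of DDM1. Transcripts of both strands of a TE can pair into double-stranded RNA, which Dicer-like enzymes cut into small interfering RNAs, and an antisense transcript can also be the end of a transcript that started at a neighbouring gene or TE.

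The study measured 3′-tag mRNA-seq, which reads only the ends of polyadenylated transcripts, in rosette leaves of the accession Col-0. The first set held 39 libraries, each from a pool of 3 plants of 31 days, and the second held 82 libraries, each from 1 leaf of a single plant of 28 days. CDCA7α and CDCA7β are the paralogous Arabidopsis genes, and the mutants were compared with the wild type (WT) to ask how they act on TEs with and without DDM1. Most groups held 2 or 3 libraries, and p-values measure the spread between these pools or plants.

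The first set comprised the WT (n = 3 libraries); cdca7α-1, a T-DNA insertion in the promoter that raises CDCA7α (n = 3); cdca7α-2, a T-DNA insertion in the coding sequence (n = 2); and the CRISPR lines cdca7β-1 (n = 3) and cdca7β-2 (n = 2). Both genes were mutated in cdca7α cdca7β-1 (the cdca7α-2 insertion with a CRISPR deletion in CDCA7β, n = 2) and in cdca7α cdca7β-2 (CRISPR in both genes, n = 2). The ddm1-2 allele had been homozygous for 1 generation (G1, labelled F2, n = 2), 2 generations (G2, n = 2) or 5 generations (G5, n = 3). It was also combined with cdca7α-2 (G1, n = 2), with cdca7α-1 (G2, n = 2), and with CRISPR mutations of CDCA7β (ddm1 cdca7β-1, n = 3, and ddm1 cdca7β-2, n = 3) or of both genes (ddm1 cdca7α cdca7β-1, n = 3, and ddm1 cdca7α cdca7β-2, n = 2). These CRISPR combinations were at G6. Per the paper, their CRISPR mutations are not those of the lines with the same number without ddm1. From the second set, the WT (n = 5 plants), cdca7α-2 (n = 3), cdca7β-1 (n = 6, called cdca7β below), cdca7α cdca7β-3 (the cdca7α-2 insertion with another CRISPR deletion in CDCA7β, n = 4) and cdca7α cdca7β-3 with a CDCA7α transgene (n = 5 primary transformants) are used. Per the paper, the transgene was brought into cdca7α-2 before endogenous CDCA7 was wholly lost, so that these plants do not measure a reversal. The other plants of the second set, from further transformations with CDCA7α constructs, entered the fits and the filter. Their levels are given only among the flagged results near the end. Each CRISPR genotype is a single line, so that line and mutation cannot be told apart. The paper also lists ddm1 with cdca7α-1 and with cdca7α-2 as progeny of a cross. Origin thus cannot be told apart from generation, nor from the added mutation where ddm1 cdca7α-1 is set against ddm1 G2.

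Libraries held 2087927 to 4439892 sense reads in the first set and 1194658 to 5206149 in the second. In the first set 168732 to 835798 antisense reads were counted per library, of which nuclear rows took 13.1% to 80.2%, and plastid transcripts took 5.55% to 43.9% of the sense reads. Because the deposited antisense values are scaled to this uneven antisense total, levels are given below as sRPM, antisense reads for each 1000000 sense reads of the library, which is also the scale of the sense row of the same TE. The library with 13.1% was replicate 3 of ddm1 cdca7α-2, and its summed member levels lay below those of its partner in all 3 classes defined below. Leaf transcripts were abundant in every library (RBCS1A, the small subunit of Rubisco, at 2328 to 20146 sRPM), whereas the flower, seed and root markers AP1, AG, CRA1, SESA2 and PYK10 stayed at or below 2.53. DDM1 itself was counted with at most 5 reads in any library of the first set, so that its transcript gives no check of the ddm1 label. CDCA7α was counted with 41 to 66 reads in cdca7α-1 and with at most 5 reads in the WT, where a loss could not be seen.

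The members lay on all chromosomes, with 130 of 7135 TE rows on chromosome 1, 135 of 5949 on chromosome 2, 113 of 6461 on chromosome 3, 113 of 4967 on chromosome 4 and 132 of 6676 on chromosome 5. Of all TE antisense rows, 8619 had any read. The number of reads behind 30 RPM differed between libraries, as 1 antisense read was worth 1.20 to 5.93 RPM. The members just inside the limit were AT4TE32070, AT1TE28370 and AT2TE20440, which in 3 libraries reached at least 30.1, 30.3 and 30.4 RPM. Just outside lay AT3TE79330, AT5TE72230 and AT3TE18450, each at 29.6 RPM. In 343 members every value above 0 was a whole number of reads, whereas in 147 fewer than 50% were, as in counts that divide a read between rows, and the level of such members is uncertain.

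By their level in the WT the members fell into 3 classes. At most 1 RPM was counted in every WT library for 176 members, called silent here. A mean of 30 RPM or more was counted for 183, called present, and the other 264 are called low. The limit was reached in no library without a ddm1 mutation by 150 silent and 118 low members, and in at least 3 such libraries by 6 silent, 98 low and 182 present members. Only 37 members reached it in all 39 libraries.

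Silent members had 0 antisense reads in all 3 WT libraries, and their summed level was 14.8 to 54.8 sRPM in the single mutants. It was 126 to 156 in cdca7α cdca7β-1 and 82.7 to 101.5 in cdca7α cdca7β-2. In ddm1 it was 610 to 732 at G1, 719 to 830 at G2 and 1047 to 1318 at G5. The sums thus stood in the order WT, single mutants, double mutants and ddm1 with no overlap between these steps, and G5 lay above both earlier generations. Since the class was defined by its WT level, the first step is fixed by the choice. The step up to ddm1 is partly set by it too. Of the silent members, 150 reached the limit of 30 RPM in no library without a ddm1 mutation. Only 6 reached it in at least 3 libraries without that mutation. Most silent members were thus chosen through ddm1 libraries, and the order of the sums is a description only.

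Low members summed to 147 to 209.2 sRPM in the WT and to 157 to 307 in the single mutants, which overlap. The double mutants lay above both, at 855 to 949 in cdca7α cdca7β-1 and 487 to 963 in cdca7α cdca7β-2. The low sum was 2115 to 2827 in ddm1 G1, 2891 to 2973 in G2 and 3653 to 4580.2 in G5. Present members summed to 2486 to 3435 in the WT, 3698 to 3822 in cdca7α cdca7β-1, 1813 to 2629 in cdca7α cdca7β-2 and 3266 to 4159 in ddm1 G5. The present sum of cdca7α cdca7β-1 lay above the WT, as did that of ddm1 G2 at 3751 and 4019. Those of cdca7α cdca7β-2 and ddm1 G5 overlapped the WT, although single present members moved in both directions, as counted below. Of the present sum AT5TE48715 alone took a mean of 130 in the WT and 745 in cdca7α cdca7β-1. As these are bulk leaves, fewer cells with an active TE and less RNA per cell cannot be told apart.

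**Figure D1:**
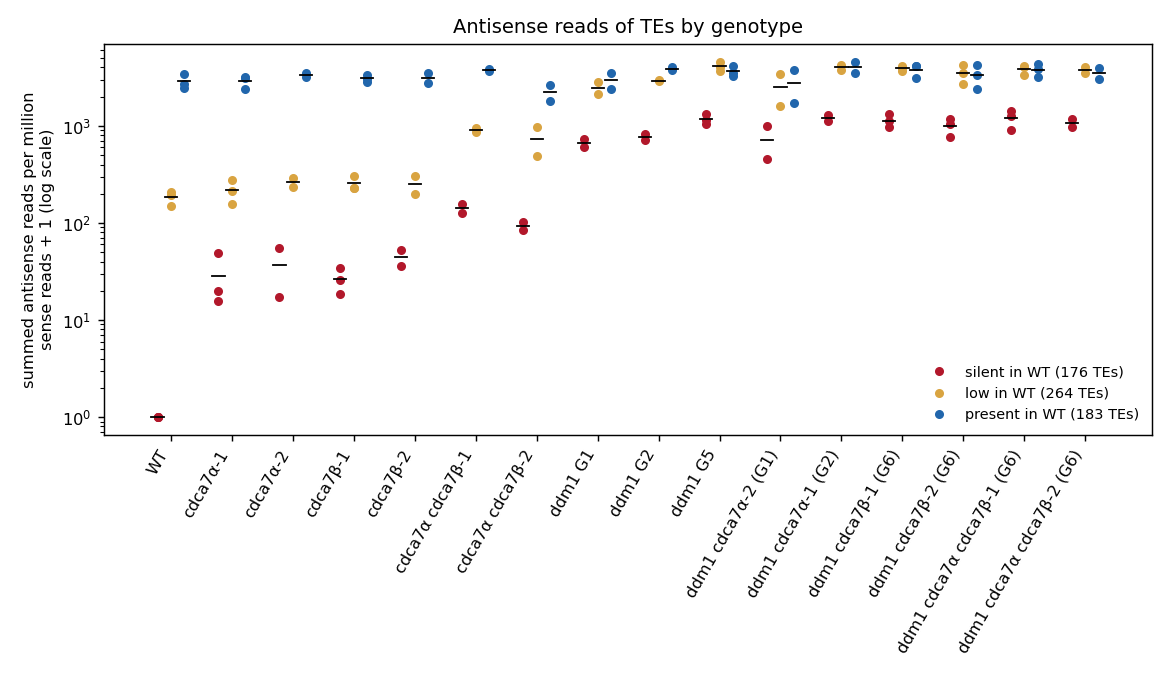
Summed antisense reads of the silent (red), low (yellow) and present (blue) members in each library of the first set, sRPM plus 1, on a log axis; points are libraries and bars are group means. The silent sum runs from 0 reads in the WT to between 1047 and 1318 in ddm1 G5, whereas the present sum stays between 1708 and 4561 in all genotypes.

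Against the WT, 315 of the 623 members had a mean antisense RPM at least 2-fold higher in ddm1 G1 with no overlap between libraries. The same held for 4.74% of the 17422 antisense rows that reached 3 RPM in at least 3 libraries. At G2 it was 338 members (8.50% of all such rows) and at G5 335 (4.68%). At G5 the 335 comprised 161 silent, 171 low and 3 present members. Lower by the same measure were 73 at G1 (9.22%), 53 at G2 (6.60%) and 35 at G5 (4.52%), mainly present members, 57, 47 and 30 respectively. In sRPM the higher members were 316, 337 and 341 (5.27%, 8.20% and 5.52% of all rows) and the lower ones 70, 35 and 20 (8.86%, 5.76% and 2.94%). The 3 generations share the WT libraries, and the rule chose the members through all of them, so that nothing is read from the counts beyond their composition.

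The double mutants had fewer such members. In cdca7α cdca7β-1 136 members stood apart above the WT (5.45% of all rows) and 6 below (2.12%), and in cdca7α cdca7β-2 103 above (2.58%) and 49 below (6.83%). In sRPM these were 136 and 7 (5.45% and 2.55%), and 108 and 31 (2.84% and 6.05%). The lower count of cdca7α cdca7β-2 depends on the scale. With RPM taken over nuclear antisense reads only (the nuclear scale) it was 12 (3.45%), beside 131 above (4.39%). Nuclear rows took 24.1% and 53.3% of the antisense reads in these libraries and 49.1% to 76.1% in the WT. Of the lower ones 31 were present members on the deposited scale and 7 on the nuclear scale. Of the single mutants, cdca7α-1 had 6 members above the WT (1.39%) and 7 below (1.43%), and cdca7α-2 had 39 above (7.41%) and 10 below (1.85%). For cdca7β-1 it was 21 above (2.98%) and 3 below (1.48%), and for cdca7β-2 36 above (7.45%) and 13 below (2.64%). In cdca7α-2 and cdca7β-2 the share of members, 39 and 36 of 623, was below that of all antisense rows.

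Across the ddm1 generations, 387 members had at least 3 antisense reads in every library of G1, G2 and G5, and 45 in none of the 3. The highest mean was at G5 for 388 members, at G2 for 143 and at G1 for 92. The mean rose from G1 through G2 to G5 for 243 and fell for 28. These counts were not set beside those of all antisense rows, and the direction from G1 to G2 depends on the scale, as given below. No steady rise particular to the members is therefore read from them. Between G5 and G1, 143 members stood 2-fold apart without overlap above G1 (6.16% of all antisense rows) and 10 below (2.40%). Between G2 and G1 it was 92 above (11.7%) and 41 below (3.68%), and between G5 and G2 88 above (3.97%) and 14 below (4.2%). On the nuclear scale G5 still had more members above G1 than below, 99 (4.59%) and 23 (3.98%), and above G2 115 (5.48%) and 11 (3.28%). For G2 against G1 the balance turned, with 52 above (8.30%) and 74 below (6.84%), so that the scale sets its direction; nuclear rows took 39.2% and 70.9% of the antisense reads in the G1 libraries and 68.5% and 67.3% in G2. Of the 143, 57 were silent, 64 low and 22 present in the WT. Only 7 members went from 0 reads at G1 to at least 3 in every G5 library, and 1 member did the reverse.

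When CRISPR mutations of CDCA7β or of both genes were combined with ddm1, the silent sums overlapped those of ddm1 alone, whereas with the promoter insertion cdca7α-1 the silent sum lay above both ddm1 libraries of its generation. The silent sum was 967 to 1323 sRPM for the β-1 line, 759 to 1191 for the β-2 line, 905 to 1422 for ddm1 cdca7α cdca7β-1 and 972 to 1168 for its second line, all overlapping the 1047 to 1318 of ddm1 G5. These lines were at G6 and their control at G5. Against G5, 8, 7, 9 and 22 members stood apart above (1.87%, 1.35%, 1.74% and 4.53% of all rows) and 20, 41, 15 and 30 below (1.66%, 3.13%, 1.96% and 3.09%), in that order. For the β-2 line the direction depends on the scale: in sRPM it had 12 above (2.20%) and 31 below (2.31%), but on the nuclear scale 32 above (3.68%) and 17 below (1.29%). In ddm1 cdca7α-1 the silent sum was 1125 to 1303, against 719 and 830 in ddm1 G2, and 139 members stood apart above G2 (8.00%) against 17 below (7.13%). In ddm1 cdca7α-2 the silent sum was 986 in replicate 2 and 451 in replicate 3, on either side of ddm1 G1. Against G1, 20 of its members stood apart above (6.49%) and 65 below (6.39%), and these counts became 50 (9.30%) and 26 (3.94%) in sRPM and 70 (9.28%) and 19 (3.52%) on the nuclear scale, so that the direction again depends on the scale.

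The 11 members with the highest means in ddm1, the double mutants or the WT carried much of the signal. The top 10 members of a library held 29.9% to 50.5% of all member reads. AT4TE10345 had 0.97, 1.31 and 1.95 antisense sRPM in the WT. It had 162 and 204 in ddm1 G1, 201 and 193 in G2 and 299.55, 242 and 290 in G5. In the double mutants it stayed at 2.03 to 6.18, above the WT but far below every library of ddm1 G1, G2 and G5. Its mean in G5 was 196-fold that of the WT.

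AT2TE19615 rose in steps. It had 2.27, 3.28 and 4.63 sRPM in the WT, 103 and 140 in cdca7α cdca7β-1, and 47.3 and 165 in cdca7α cdca7β-2. In ddm1 it stood at 286 and 315 at G1, 554 and 269 at G2 and 425, 393 and 427 at G5, above every library of the double mutants. AT2TE16800 had 2.60, 1.64 and 3.41 in the WT and 18.2 to 35.5 in the double mutants. It reached 318 and 613 at G1, 509 and 452 at G2 and 461, 303 and 403 at G5. Its level did not rise over the generations.

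AT4TE09080 and AT4TE15420 had the same order. AT4TE09080 was at 0.98 to 1.95 sRPM in the WT, 17.1 to 57.8 in the double mutants and 188 to 324 in ddm1 G5. AT4TE15420 was at 0.66 to 1.70 in the WT, 47.5 to 81.7 in the double mutants and 205 to 258 in G5. In each of them the 3 groups did not overlap.

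AT4TE15005 did not follow that order. It had 3.57, 0.66 and 2.43 sRPM in the WT, 284 and 192 in cdca7α cdca7β-1, and 144 and 372 in cdca7α cdca7β-2. ddm1 had 104 and 166 at G1, 131 and 207 at G2 and 188, 147 and 154 at G5. The double mutants thus reached the level of ddm1, and their means of 107-fold and 116-fold the WT were the highest fold of these 11 members in the double mutants.

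The other 5 of these members were well above the rest in the WT and moved less. AT5TE48715 was at 117, 82.6 and 190 sRPM in the WT, 1006 and 484 in cdca7α cdca7β-1, 322 and 235 in cdca7α cdca7β-2 and 700, 570 and 407 in ddm1 G5. The WT lay below each of these groups, and also below cdca7α-2 at 415 and 318. AT1TE83640 had 349, 294 and 265 in the WT and 331, 336 and 289 in ddm1 G5, which overlap.

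AT2TE16940 ranged from 67.2 to 205 in the WT and from 97.6 to 273 in ddm1 G5. AT3TE40370 ranged from 68.2 to 109 in the WT and from 70.5 to 125 in ddm1 G5. Both overlapped. AT2TE04635 went the other way, with 127, 183 and 174 in the WT and 74.1, 76.5 and 103 in ddm1 G5. All of its ddm1 G5 libraries were below the WT, and its mean there was 0.526 times that of the WT.

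**Figure D2:**
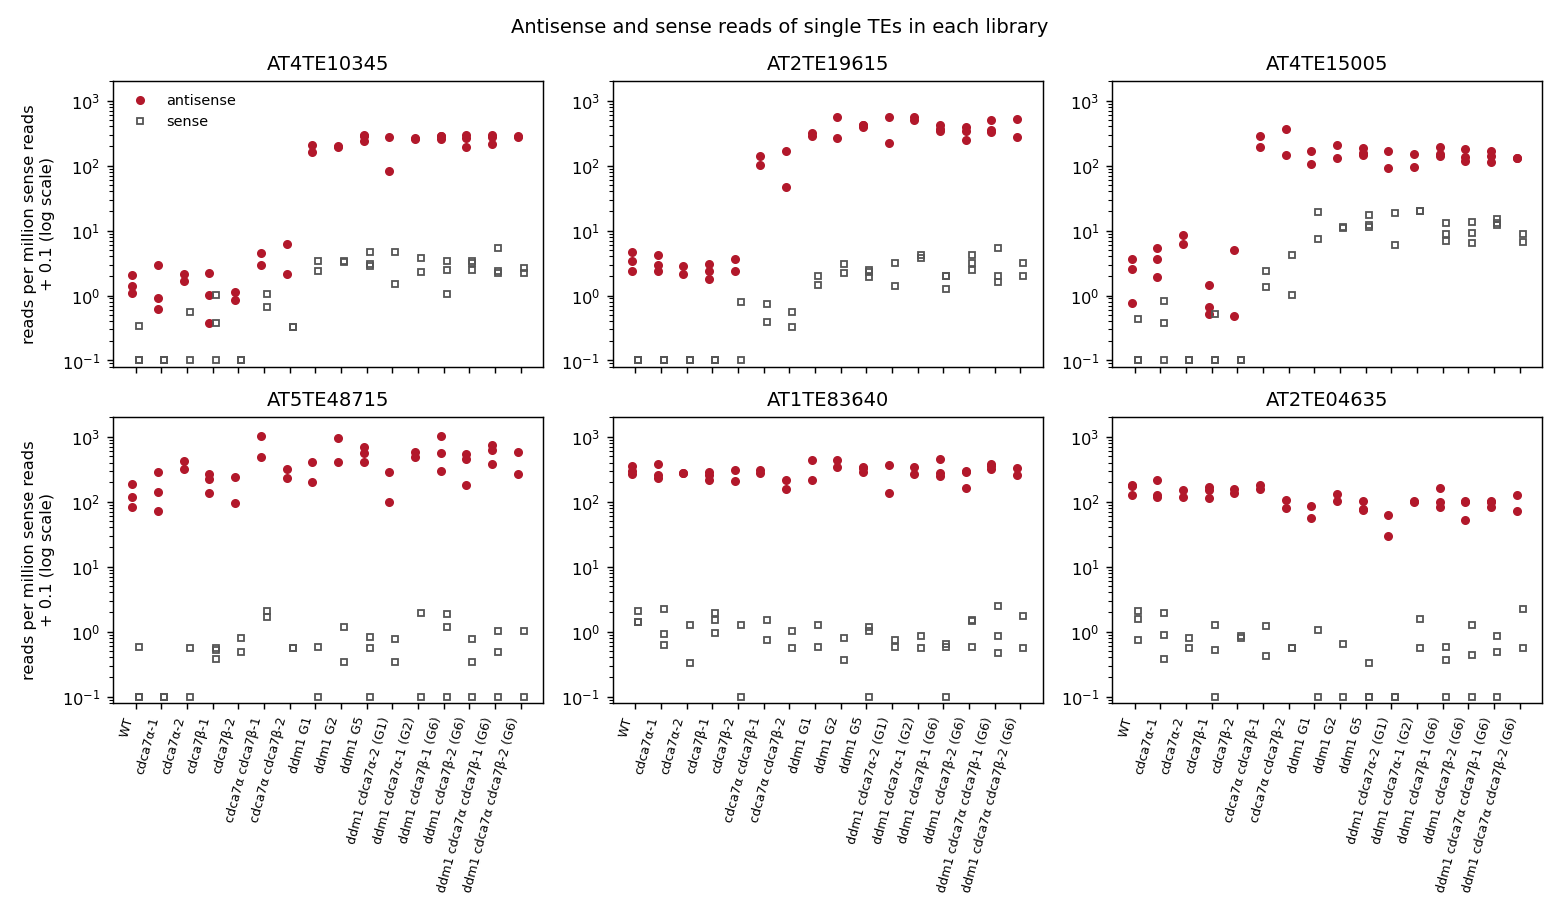
Antisense (filled) and sense (open) reads of 6 single TEs in each library of the first set by genotype, sRPM plus 0.1, on a log axis. The upper row shows TEs that go from at most 4.63 antisense sRPM in the WT to between 104 and 554 in ddm1 G1, G2 and G5. In the lower row the WT level is already between 82.6 and 349.

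The sense row of the same TE gave another picture. In ddm1 G5 the mean antisense level was above the sense level in 130 of the 176 silent members, 226 of the 264 low members and 171 of the 183 present members. The sense level was the higher of the pair in 43, 37 and 12. The rule chose the members by antisense level and asked nothing of the sense row. An excess of antisense is therefore partly set by the choice and is not read as a property of these TEs. For AT4TE10345 the sense row held 2.92, 4.64 and 2.76 sRPM in ddm1 G5, beside the 299.55, 242 and 290 of its antisense row. For AT2TE19615 it held 2.19, 1.85 and 2.41.

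The summed sense level nevertheless exceeded the summed antisense level. In the silent class it was 4176 to 4478 sRPM in ddm1 G5, against 1047 to 1318 antisense. A few TEs held most of it. AT4TE15820 had a mean of 1125 sense and 2.62 antisense sRPM in G5, AT1TE44450 704 and 2.72, and AT1TE38940 516 and 3.40. In the low class AT3TE60425 had 2722 sense sRPM in G5 and 2109 in cdca7α cdca7β-1, with 1.61 and 2.10 antisense. At the other end AT3TE57780, the highest silent member in G5, had comparable levels on both strands, 50.8 antisense and 35.5 sense. AT5TE40510, the next, had 42.1 antisense and 0.35 sense, and AT1TE47580 had 30.6 and 1.40.

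**Figure D3:**
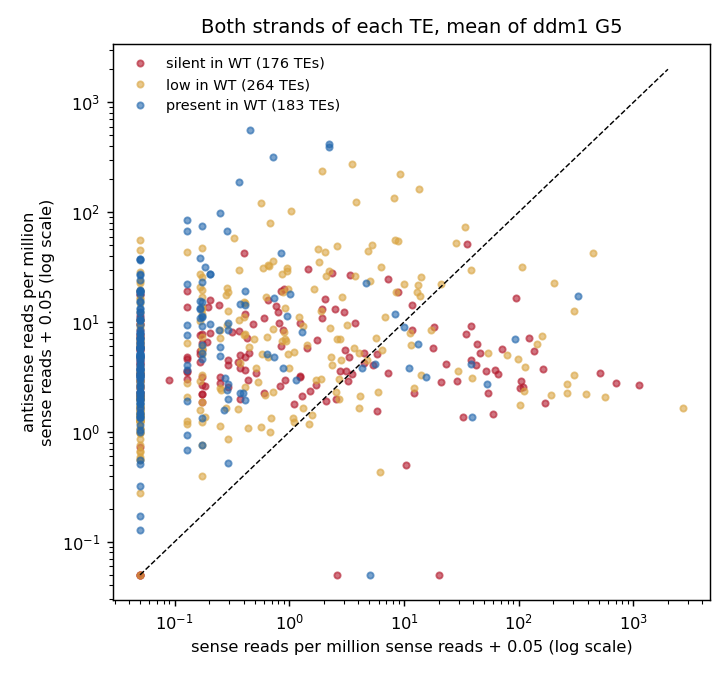
Mean antisense against mean sense level of each member in ddm1 G5, both in sRPM plus 0.05 on log axes; the dashed line marks equal levels and colours give the class in the WT. In each class most TEs lie above the line (130 of 176, 226 of 264 and 171 of 183), and the TEs with the highest sense level, up to 2722, have few antisense reads. The members were chosen by antisense level alone, which favours the side above the line.

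Enough sense reads for a test (at least 10 in at least 3 libraries) were present for 151 of the 623 members, 59 silent, 74 low and 18 present. Their sense row was higher than in the WT for 119 in ddm1 G1, 122 in G2 and 131 in G5, and lower for 2, 1 and 0 (edgeR's quasi-likelihood test, adjusted p at most 0.1 by Benjamini-Hochberg over all 17943 features and at least 2-fold). Over all TE sense rows tested, 73.9%, 76.7% and 78.6% were higher, and over all features 9.70%, 10.2% and 7.69%. At G5, where none was lower, 134 had an unadjusted p under 0.05 in the higher direction and 2 in the lower, and DESeq2 also called 131 higher and 0 lower. The median log2 fold change of the 151 was 6.16 at G1, 6.23 at G2 and 6.58 at G5. These counts rest on a filter taken over all 39 libraries. When only the ddm1 group and the WT were fitted, 22 members passed it at G1, 23 at G2 and 100 at G5, of which 14, 14 and 91 were higher and 2, 0 and 0 lower. A TE that passes the filter only through the ddm1 libraries had to differ, so that these shares are set beside those of the other TEs and not read alone. RBCS1A was also higher in all 3 generations, with log2 fold changes of 2.18, 2.23 and 1.45 (SE 0.41, 0.41 and 0.38; edgeR, adjusted p = 0.000327, 0.000250 and 0.00969), and its part in these results was not tested.

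By class, the sense row was higher at G5 for 55 of 59 silent, 70 of 74 low and 6 of 18 present members. For AT4TE15420 the log2 fold change was 8.16 (SE 1.17, edgeR adjusted p = 1.35e-05), for AT4TE15005 6.83 (SE 0.64, adjusted p = 5.05e-09), and for AT2TE19615 6.02 (SE 1.09, adjusted p = 0.000481). The 3 calls in the other direction came from 2 present members. AT2TE37325 had 115, 88.0 and 69.8 sense sRPM in the WT and 18.0 and 29.8 in ddm1 G1, a log2 fold change of -1.44 (SE 0.32, edgeR adjusted p = 0.00185). AT5TE31350 had 15.1, 14.4 and 10.5 in the WT, 0.91 and 0.96 in G1 and 2.12 and 5.33 in G2, or -3.22 at G1 (SE 0.68, edgeR adjusted p = 0.00124) and -1.46 at G2 (SE 0.54, adjusted p = 0.0709). The antisense reads of both were also fewer in G1 than in any WT library.

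In the double mutants the sense row was higher for 34 members in cdca7α cdca7β-1 and for 34 in cdca7α cdca7β-2, and lower for 0 in each (edgeR). Over all TE sense rows tested the shares were 19.4% and 20%. With only the double mutant and the WT in the fit, 20 and 19 members passed the filter and 4 and 6 were higher. AT3TE63540 had 65.6 and 60.5 sense sRPM in cdca7α cdca7β-1, 42.3 and 99.5 in cdca7α cdca7β-2 and 0.82 to 2.44 in the WT. Its log2 fold changes were 4.96 (SE 0.49, adjusted p = 5.83e-08) and 5.79 (SE 0.50, adjusted p = 4.61e-09) in edgeR's test. No member was lower at an unadjusted p under 0.05 in either line, where 47 and 56 were higher, and DESeq2 called 33 and 36 higher and 0 lower.

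The single mutants gave few calls among the 151 members tested, 2 in cdca7α-2, 1 in cdca7β-1, 1 in cdca7β-2 and 0 in cdca7α-1. These numbers are near the shares of all TE sense rows, of which 0.716% were higher in cdca7α-2, 0.818% lower in cdca7β-1 and 0.307% higher in cdca7β-2 (1.72%, 0.920% and 0.290% of all features). In cdca7α-2 the sense rows of AT3TE63540 (8.50 and 20.2 sRPM; log2 fold change 2.68, SE 0.49, edgeR adjusted p = 0.00575) and AT2TE22335 (1.18 and 1.74; 2.53, SE 0.69, adjusted p = 0.0968) were higher. AT3TE63540 lost the call without replicate 2 of cdca7α-2 (edgeR adjusted p = 0.228), and AT2TE22335 in DESeq2's test (0.184) and without any 1 of 4 of the 5 libraries compared (0.248 to 0.503). In cdca7β-2 that of AT5TE42470 was higher (16.6 and 2.25 sRPM against 0, 1.29 and 2.09 in the WT; 2.59, SE 0.68, edgeR adjusted p = 0.0960). The difference was carried by 1 library, without which it was 0.38 (replicate 2, edgeR adjusted p = 0.936). The call was also lost with the replicate number as a block (adjusted p = 0.121) and without WT replicate 1 (0.101) or WT replicate 2 (0.416). In cdca7β-1 that of AT4TE21055 was lower (0.71 to 0.95 against 1.498 to 2.49; -1.55, SE 0.37, edgeR adjusted p = 0.0684), a call lost without any 1 of 5 of the 6 libraries compared (0.108 to 0.301). When only the mutant and the WT were fitted, none of these 4 was called: AT3TE63540 had an edgeR adjusted p of 0.438, and the others did not pass the filter. cdca7α-1 had 0 calls by edgeR and 0 by DESeq2, with an unadjusted p under 0.05 for 2 members higher and 3 lower.

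Between ddm1 G5 and G1 no sense row of a member was called by edgeR, although an unadjusted p under 0.05 was reached by 21 higher and 1 lower, and DESeq2 called 7 higher. Their median log2 difference was 0.54. The lines that combine ddm1 and cdca7 mutations had 0 calls against ddm1 with 1 exception. AT2TE20205 had 123, 105 and 117 sense sRPM in ddm1 cdca7α cdca7β-1 against 12.5, 9.59 and 8.95 in ddm1 G5, a log2 fold change of 3.44 (SE 0.61, edgeR adjusted p = 0.0371). The fold change stayed at 3.29 to 3.53 with each library left out, but the call was lost without any 1 of the 3 ddm1 G5 libraries or without replicate 3 of ddm1 cdca7α cdca7β-1 (edgeR adjusted p = 0.125 to 0.697). Its level was 37.0 and 61.2 in ddm1 G1, between both. Its antisense row held 0.38 to 5.17 in ddm1 cdca7α cdca7β-1 and 0.23 to 0.69 in G5, which overlap. Where no call was made, an unadjusted p under 0.05 was found for 8 members higher and 4 lower in the ddm1 line with cdca7α-1 and 8 and 3 in that with cdca7α-2. In the β-1 and β-2 lines it was 3 and 4, and 2 and 9, and in ddm1 cdca7α cdca7β-2 2 and 3. DESeq2 called 2 in the cdca7α-2 line, 1 in the β-2 line and 0 in the others of these.

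For each member the sense row of any gene or TE that varied most like its antisense row over the 39 libraries was sought (Pearson's r of sRPM; the libraries share genotype and depth, so that r is a description only). AT4TE10345 was most like the sense row of AT4TE10350, the next numbered TE (r = 1.00), and over all libraries the antisense row of the first held 18831 reads and the sense row of the second 18422. AT2TE16940 and AT2TE16945 (r = 1.00) held 19790 and 19681 reads. AT4TE09080 was paired with AT4TE09085, AT4TE15420 with AT4TE15440, AT4TE15005 with AT4TE15030 and AT2TE19615 with AT2TE19625, all at r of 1.00 and with 0.855, 0.945, 1.00 and 0.874 sense reads for each antisense read. For AT2TE16800 the partner AT2TE16825 held 0.334 reads for each antisense read (r = 0.99).

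Of the present members named above, 4 were paired with genes. AT1TE83640 was most like AT1G68010 (HPR, hydroxypyruvate reductase of photorespiration; r = 0.99), which held 1.68 sense reads for each antisense read. AT2TE04635 was most like AT2G03440 (NRP1; r = 0.99, ratio 0.919), which had 155 ± 33.0 sense sRPM in the WT (SD, n = 3) and 75.9 ± 12.5 in ddm1 G5 (SD, n = 3). AT3TE40370 was most like AT3G26450 (r = 0.99, ratio 1.31) and AT5TE48715 like AT5G35480 (r = 1.00, ratio 0.664). AT5G35480 had 80.8 ± 39.3 in the WT, 496 ± 269 in cdca7α cdca7β-1 (SD, n = 2) and 375 ± 92.2 in ddm1 G5 (SD, n = 3). Each of these partners carries a locus number of the same chromosome as the TE.

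Among all 183 present members the most alike feature was a gene for 170. An r of 0.95 or more was reached by 67, all on the chromosome of the TE, and for 52 the partner was a gene with a read number within 2-fold. Further examples were AT5TE58950 with AT5G40780 (LHT1, an amino acid transporter; ratio 1.06), AT2TE35695 with AT2G19800 (MIOX2, myo-inositol oxygenase; 1.13), AT5TE34715 with AT5G27150 (NHX1, a vacuolar sodium/proton exchanger; 1.18) and AT1TE41000 with AT1G34418 (1.01). Among the silent members the partner was a TE for 151 of 176. Of the 90 that reached an r of 0.95, 37 had it on the same chromosome. The low members lay between, with a TE for 167, a gene for 97 and 50 of 121 partners at r of 0.95 on the same chromosome. On the deposited RPM scale the most alike feature was the same for 50 silent, 100 low and 111 present members. The own sense row, which was among the rows searched, had a median r of 0.43 for silent, 0.39 for low and 0.12 for present members.

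In total 115 members, 23 silent, 37 low and 55 present, had such a partner on their chromosome, either a TE within 10 TE numbers or the most alike feature, at an r of 0.95 or more and within 2-fold in reads. They held 43.4% to 62.3% of all member reads of a library. In 3 of them the number of antisense reads equalled that of the next TE's sense row to within 0.5 reads in more than 80% of the libraries: AT5TE38990 (AT5TE38995, 94.9% of libraries), AT5TE41180 (AT5TE41185, 87.2%) and AT2TE18435 (AT2TE18440, 82.1%). Whether the same reads were counted in both rows was not tested, since TE coordinates were not used here.

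**Figure D4:**
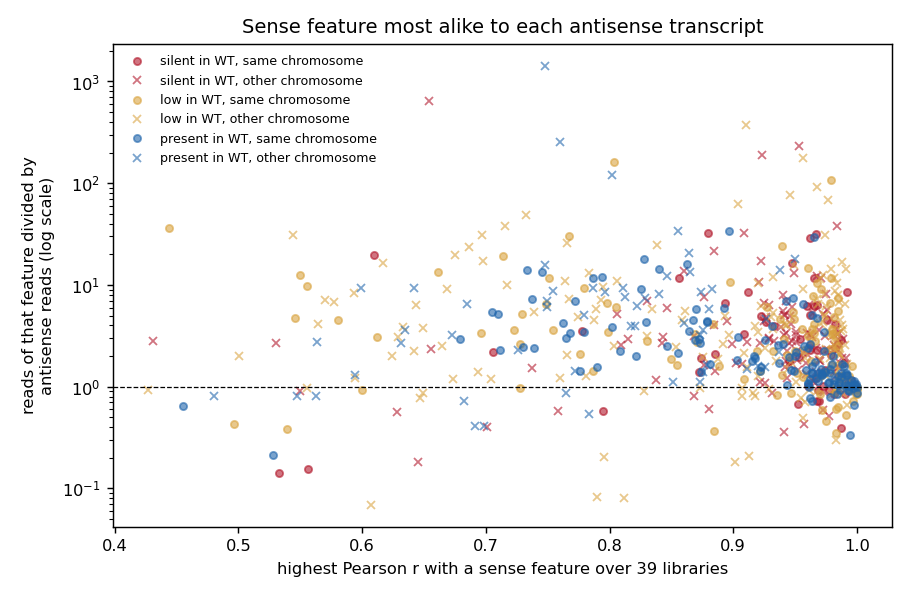
For each member, the highest Pearson r between its antisense row and any sense row over the 39 libraries (horizontal) and the reads of that sense row divided by the antisense reads (vertical, log axis; the dashed line marks 1). Circles are partners on the same chromosome and crosses on another. Of the 183 present members (blue), 67 reach an r of 0.95, and 52 of these have a gene with reads within 2-fold as partner. The median highest r was 0.951 for silent, 0.943 for low and 0.903 for present members.

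Genes of the small RNA pathway were examined beside the antisense rows. Of 15 listed genes (Dicer-like, RNA-dependent RNA polymerase, Argonaute and helper proteins) 13 were tested, with 1 call at G1, 3 at G2 and 1 at G5. Of all features 9.70%, 10.2% and 7.69% were higher and 6.96%, 4.37% and 2.81% lower, and nothing is read from so few calls. In ddm1 G1 RDR1 was lower (log2 fold change -1.68, SE 0.43, edgeR adjusted p = 0.00727). In G2 RDR6, the polymerase that makes double-stranded RNA from TE transcripts, was higher (1.27, SE 0.35, edgeR adjusted p = 0.0126), and DCL1 (-1.03, adjusted p = 0.0246) and DCL2 (-1.33, adjusted p = 0.0954) were lower. In G5 only DCL2 was called (-1.25, SE 0.47, edgeR adjusted p = 0.0893). AGO6 and AGO9, at 3 reads or fewer in every library, could not be tested.

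The second set gave an independent measurement of the antisense rows in the cdca7 mutants. Of the 623 members, 605 had a read in it, and 272 passed the filter of 10 reads in 3 libraries (8 silent, 89 low and 175 present). The silent sum was 0.709 to 30.2 sRPM in the WT (median 6.14, n = 5), 42.4 to 161 in cdca7α cdca7β-3 (median 71.0, n = 4) and 2.63 to 27.3 in the plants with the transgene (median 17.0, n = 5). The low sum was 119 to 165, 657 to 834 and 147 to 169 in the same order. In both classes cdca7α cdca7β-3 lay above every plant of the other groups shown, whereas the transgenic plants overlapped the WT. The present sum was 3835 to 4341, 4885 to 5237 and 3434 to 4600.01, of which AT5TE48715 alone took 459 to 570 in the WT and 1005 to 1717 in cdca7α cdca7β-3.

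**Figure D5:**
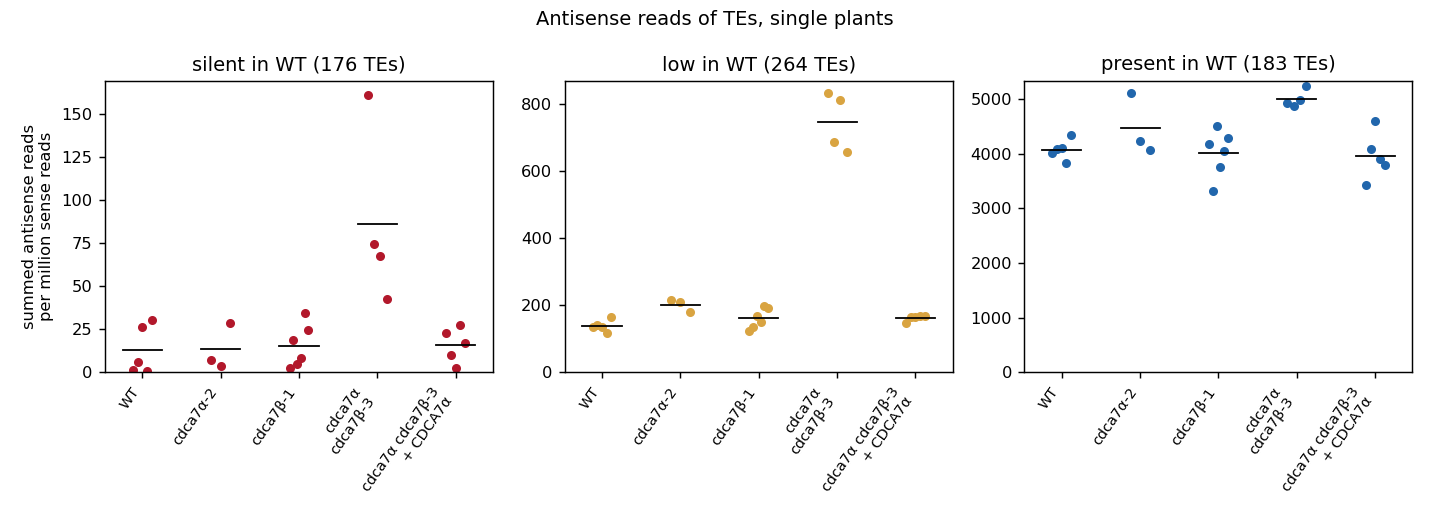
Summed antisense reads of the silent, low and present members in single plants of 5 genotypes of the second set, in sRPM; points are plants, bars are means and the axes start at 0. For silent and low members cdca7α cdca7β-3 stands apart, at 42.4 to 161 and 657 to 834, and the plants with the CDCA7α transgene are at 2.63 to 27.3 and 147 to 169.

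Antisense rows of 34 members were higher and of 0 lower in cdca7α cdca7β-3 than in the WT (limma-trend on log2(RPM + 1), adjusted p at most 0.1 by Benjamini-Hochberg over 3006 antisense rows and at least 2-fold). Over all rows tested, 11.3% of the TE antisense rows and 1.26% of the antisense rows of any feature were higher. The members are most of the TE antisense rows tested, so that here and below the TE share is no separate background. They were 5 of 8 silent, 26 of 89 low and 3 of 175 present members tested, and as above a TE that passed the filter through the mutant plants alone had to differ. At an unadjusted p under 0.05 there were 45 higher and 4 lower members, and edgeR on the recovered reads called 34 higher and 0 lower. The own sense row could be tested for 6 of the 34 and was higher for 5.

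The highest change was that of AT4TE15005, with 400, 218, 404 and 214 antisense sRPM in cdca7α cdca7β-3 and 0 to 1.53 in the 5 WT plants, a log2 fold change of 8.65 (SE 1.30, limma adjusted p = 4.03e-06). In the plants with the transgene it was at 0 to 1.79. AT4TE15420 had 81.3, 64.2, 52.2 and 79.5 in the double mutant and at most 0.69 in the WT (8.29, SE 1.41, limma adjusted p = 4.08e-05). Neither of these members overlapped between mutant and WT.

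AT2TE16800 had 19.5, 36.1, 35.8 and 24.4 sRPM in cdca7α cdca7β-3 and at most 0.86 in the WT (7.36, SE 1.16, limma adjusted p = 1.19e-05). AT4TE09080 had 13.3, 42.1, 20.1 and 26.4, and at most 0.31 in the WT (6.97, SE 1.21, adjusted p = 4.80e-05 by limma). AT3TE63540 had 11.3, 12.2, 17.8 and 15.2, with 0 reads in all WT plants, so that its fitted value of 6.97 (SE 1.22, limma adjusted p = 4.98e-05) depends on the 1 RPM added. In AT3TE63540 alone of these 5 the sense row was the higher strand, at 163, 109, 294 and 131.

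Present members changed in 3 cases. AT5TE48715 had 1641, 1717, 1689.8 and 1005 sRPM in cdca7α cdca7β-3 against 459 to 570 in the WT (1.54, SE 0.38, limma adjusted p = 0.0131), and AT2TE19615 38.97, 19.4, 19.2 and 3.63 against at most 0.35 (5.93, SE 1.26, limma adjusted p = 0.00130). AT2TE16800 is the third. AT1TE83640, AT2TE04635, AT2TE16940 and AT3TE40370, paired above with 3 genes and the next TE, had log2 differences of -0.15 (SE 0.22), -0.09 (SE 0.19), 0.03 (SE 0.26) and -0.16 (SE 0.22), none of them called.

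The 5 silent members were low in reads. With at most 0.35 sRPM in the WT, they passed the filter through other plants. Their difference is thus partly set by the filter, and its size depends on the 1 RPM added to each value. The p-values below are given with this limit and are not read alone. AT3TE57780 had 4.75, 3.14, 3.44 and 2.07 antisense sRPM in cdca7α cdca7β-3 and 0 reads in all WT plants (limma adjusted p = 4.08e-05). AT5TE40510 had 8.08, 2.62, 2.29 and 0.52 (limma adjusted p = 0.00191) and AT5TE43705 2.38, 3.67, 4.30 and 4.92 (adjusted p = 0.000785), each against at most 0.35 in the WT. AT1TE46095 had 0.48, 2.10, 0.29 and 5.44, and AT2TE11900 2.38, 5.95, 2.56 and 0, both with 0 reads in the WT (limma adjusted p = 0.0201 and 0.0203).

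The plants with the CDCA7α transgene were compared with the same 4 cdca7α cdca7β-3 plants, and 31 members were lower and 0 higher (limma, 45 lower and 4 higher by unadjusted p under 0.05; 9.97% of the TE antisense rows and 1.40% of all antisense rows tested were lower). edgeR on the recovered reads called 20 lower and 0 higher. The log2 fold change was -9.10 for AT4TE15005 (SE 1.30, limma adjusted p = 2.72e-06), -8.38 for AT4TE15420 (SE 1.41, adjusted p = 3.60e-05) and -1.52 for AT5TE48715 (SE 0.38, adjusted p = 0.0175). All 5 silent members named above were called lower, with 0 reads in every plant with the transgene. They were named for being high in the same 4 cdca7α cdca7β-3 plants, so that these calls in part repeat the comparison with the WT.

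In cdca7α-2 of the second set 2 members were higher than in the WT (limma; 0.643% of TE antisense rows and 0.0665% of all antisense rows). AT1TE93275 was called under every setting tried, whereas AT3TE58655 was not called in sRPM (limma adjusted p = 0.223), without WT replicate 1 (0.167) or without replicate 2 or 3 of cdca7α-2 (0.148 and 0.137). AT1TE93275 had 22.7, 18.6 and 10.5 sRPM against 0.69, 1.68, 12.6, 1.06 and 0 in the WT (3.84, SE 0.58, limma adjusted p = 1.25e-05), and 1 WT plant overlapped. It stayed at 9.56 to 20.1 in cdca7α cdca7β-3 plants with the transgene and at 12.6 to 22.3 in those without it, which overlap. In the first set it had 16.2 and 31.3 in cdca7α-2 and 9.68 and 34.1 in cdca7α cdca7β-1, which carry the same insertion, and 0 reads in both libraries of cdca7α cdca7β-2, made by CRISPR alone. The promoter insertion line cdca7α-1 had 10.1, 5.66 and 23.4. As a low member, AT1TE93275 also had antisense reads in the WT of the first set. Whether the insertion has a part in its level was not tested.

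AT3TE58655 had 4.47, 5.42 and 5.46 sRPM in cdca7α-2 and at most 0.92 in the WT (3.60, SE 0.75, limma adjusted p = 0.0109), with no overlap. In the plants with the transgene it was at 2.52 to 7.57, between the WT and the 9.43 to 13.2 of cdca7α cdca7β-3. In the first set it was at 6.76 to 10.8 in the double mutants and 12.1 to 28.5 in ddm1 G5. In cdca7β no member was called by limma or by edgeR on the recovered reads, and an unadjusted p under 0.05 was reached by 1 higher and 5 lower.

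The sense rows of the second set were also tested. Of 53 members with a sense row that could be tested, 34 were higher and 0 lower in cdca7α cdca7β-3 than in the WT (edgeR). Of all TE sense rows tested, 44.5% were higher. Only 5 of these members were also among the 34 with a higher antisense row. As above, a TE that passed the filter through the mutant plants alone had to differ. At an unadjusted p under 0.05, 38 sense rows were higher and 1 lower, and DESeq2 called 25 higher and 0 lower. With the transgene 24 were lower (32.1% of TE sense rows), a count that fell to 9 without replicate 3 and to 15 without replicate 2 of the transgenic plants. The same cdca7α cdca7β-3 plants serve in both comparisons, so that these calls in part repeat the one with the WT. The single mutants gave 0 calls by edgeR and DESeq2, and an unadjusted p under 0.05 was reached in cdca7α-2 by 2 higher and 1 lower and in cdca7β by 1 higher. The sense row of AT5TE42470 was higher, with 14.5, 15.4, 10.4 and 10.5 sense sRPM in cdca7α cdca7β-3 against at most 0.35 in the WT (5.74, SE 1.25, edgeR adjusted p = 0.00404), whereas its antisense row had 6.02 to 16.0 against 11.2 to 25.03, which overlap (-0.70, SE 0.42, limma adjusted p = 0.998).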

How the data were processed

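3′-tag mRNA-seq was measured in 121 libraries of rosette leaves. Per the study's methods, the authors removed PCR duplicates, aligned with STAR 2.7.11a to the TAIR10 genome and quantified with Salmon 1.10.1 on AtRTD3 transcripts and TAIR10 TEs, sense and antisense. Sense-strand values were used as deposited, as estimated counts without normalization. The deposited RPM tables, a normalized signal made by the authors, also hold the antisense rows, scaled to each library's antisense total. TEs that overlap protein-coding genes were removed in the study from its lists of misregulated TEs, but this was not done here.

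Antisense reads were recovered here by dividing RPM by the value of 1 read. Within 0.02 reads, 95.3% to 98.8% of all antisense values and 80.8% to 95.1% of TE antisense values of the first set came out whole. Levels (sRPM) are these reads for each 1000000 sense reads. They are per TE and not per length, so that levels of different TEs are not compared as transcript numbers. Sense counts were summed per locus and rounded, and features with 10 reads in 3 libraries were fitted over all groups of a set in edgeR 4.0.16 (quasi-likelihood, TMM; R 4.3.3). Antisense rows of the second set were tested with limma 3.58.1 on log2(RPM + 1), since no antisense counts were used. Calls needed a Benjamini-Hochberg adjusted p of at most 0.1 and a log2 change of at least 1. DESeq2 1.42.0 was an alternative, and Python 3.11.15, numpy 2.4.6, pandas 2.3.3 and matplotlib 3.10.9 were used. The scripts were tested on simulated data.

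Named members are the 8 highest means in ddm1 libraries, the 5 highest in the WT, the 5 highest in the double mutants, the 5 largest changes of cdca7α cdca7β-3 against the WT in the second set, the members of lists of 5 or fewer and those nearest the limit. Other members named, such as those with the highest sense level, were chosen after their values were seen. The members and lists were chosen with earlier results of these data known. The search for alike features was planned for present members on the deposited RPM scale; its extension to the other classes and to sRPM, edgeR on recovered antisense reads and the sRPM scale were chosen after seeing the data. Gene symbols come from RefSeq TAIR10.1 by locus tag. Among comparisons with 3 or more pairs, samples of equal replicate number deviated together in every pair (r over 0.1) for the sense counts of cdca7α cdca7β-3 and the WT alone, at r of 0.14 to 0.61, where the replicate number was also tried as a block.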

Additional observations from a re-analysis of the deposited data

Results flagged for a closer look

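The summed antisense levels of the 3 classes were examined for a library far from the others in the 13 groups of 4 to 7 plants of the second set, which makes 39 sums. The classes share plants, so that the sums are not independent and no rate is read from the number flagged. In 7 sums, none of the present class, 1 plant stood apart. For the low members these were 278 sRPM in cdca7α-2 with the construct p6966, 147 in cdca7α cdca7β-3 with CDCA7α (below the other 4 plants), 583 in cdca7α cdca7β-3 with the construct dCter and 696 in cdca7α cdca7β-3 with the construct p6966_d26nt. For the silent members they were 27.7 in cdca7α-2 with p6966_d4nt, 220.5 in cdca7α cdca7β-3 with C183S_C209S and 82.5 in cdca7α cdca7β-3 with dCter. Per the paper, p6966 is the CDCA7α promoter of another accession, and d4nt and d26nt are versions of it with a short stretch deleted. The construct dCter lacks the C-terminal part of CDCA7α, and C183S_C209S alters cysteines of its zinc finger. All flagged plants are primary transformants, and the cause was not tested.

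The antisense level differed between cdca7α-2 and cdca7β of the second set for 2 of the 272 members tested. The difference was 4.37 on the log2 scale for AT1TE93275 (limma adjusted p = 4.15e-08), higher in cdca7α-2, and 4.12 for AT3TE58655 (limma adjusted p = 0.000217), also higher in cdca7α-2, and 15 members had an unadjusted p under 0.05.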

How the results depend on the processing

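A limit of 20 RPM gave 773 members and one of 50 RPM 474, and leaving out each library gave 614 to 623. RPM scaled to the nuclear antisense reads gave 842. Without a filter, antisense calls of the second set rose to 72 for cdca7α cdca7β-3, 71 for the transgene and 4 for cdca7α-2; edgeR on recovered reads gave 20 for the transgene, and the sRPM scale 1 for cdca7α-2. Without a filter the sense calls of the first set were 3 in cdca7α-1, 6 in cdca7α-2, 4 in cdca7β-1, 10 in cdca7β-2, 18 for G5 against G1, 6 in ddm1 cdca7α-1, 5 in ddm1 cdca7α-2, 3 in ddm1 cdca7β-1, 10 in ddm1 cdca7β-2, 9 in ddm1 cdca7α cdca7β-1 (5 of them lower, turning the balance) and 5 in ddm1 cdca7α cdca7β-2. DESeq2's test gave 4 in cdca7β-2, 7 for G5 against G1, 2 in ddm1 cdca7α-2, 1 in ddm1 cdca7β-2 and 4 in ddm1 cdca7α cdca7β-1 (3 lower), and its size factors 1 in cdca7α-2 and 2 in cdca7β-1. Fitting only the groups compared, where fewer features pass the filter, gave 16 at G1, 14 at G2, 4 and 6 in the double mutants, 0 in cdca7α-2, cdca7β-1 and cdca7β-2, and 1 for G5 against G1.

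With each library left out in turn, sense calls ranged over 111 to 119 at G1, 114 to 121 at G2, 124 to 129 at G5, 28 to 32 and 29 to 33 in the double mutants, 0 to 2 in cdca7α-2, 0 to 3 in cdca7β-1, 0 to 2 in cdca7β-2 (1 lower without WT replicate 1, where the call turned) and 0 to 1 in ddm1 cdca7α cdca7β-1. In the second set the ranges were 27 to 34 for sense and 30 to 35 for antisense in cdca7α cdca7β-3, 9 to 24 and 26 to 34 with the transgene, and 1 to 2 for antisense in cdca7α-2. With the replicate number as a block, antisense calls were 34 in cdca7α cdca7β-3, 30 with the transgene and 2 in cdca7α-2, sense calls were 35 in cdca7α cdca7β-3, and the single call in cdca7β-2 of the first set was lost, leaving 0. Depth limits the choice of members, since 1 read was worth 1.20 to 5.93 RPM of an antisense total that is partly organellar. The cause of these shifts was not tested.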
